A study of Saccharomyces cerevisiae with 26 samples.

Results

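The comparison described here is between 2 budding yeast (Saccharomyces cerevisiae) strains, fkh1Δfkh2Δ2C and fkh1Δfkh2Δ, in a BrdU immunoprecipitation and sequencing experiment. It used 4 of the 26 samples of the series, 2 libraries per strain, and they were taken by the column names of the deposited table of BrdU signal. The other 6 of the 10 BrdU libraries came from WT, fkh1Δ and fkh2Δ, and they entered only the shared estimate of the spread and the classes of peaks. All 5 strains were held with α-factor for 4 h and moved into medium with hydroxyurea and BrdU for 1 h. Both compared strains carry a deletion of FKH1, and they differ, per the labels, in FKH2. The strain tags read fkh1Δfkh2Δ and fkh1Δfkh2Δ2C, while the titles of the same samples read fkh1Δfkh1Δ and fkh1Δfkh1Δ2C. What 2C stands for is stated in no source used here. No label says that the 2 replicates of a strain were separate cultures, so the spread that p-values measure here is that between samples and may be technical.

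FKH1 and FKH2 encode Forkhead transcription factors. They bind promoters of genes used in late S phase and mitosis, among them the CLB2 cluster, and they also bind near a subset of replication origins, where they promote early firing. Alpha-factor, a mating pheromone, arrests cells of mating type a in G1. Hydroxyurea lowers the supply of nucleotides and slows forks, and the checkpoint that it triggers holds back late origins. BrdU is a thymidine analogue built into new DNA, so that its signal gathers around the origins that fired early.

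The deposited values are a normalized signal in 241409 bins of 50 bp, for which no read counts were given, so the depth behind each value is unknown. The 10 libraries had nearly the same overall distribution of values, so a gain at some places went with a loss elsewhere. Peaks were local maxima of the highest strain mean, 390 in all, that reached 3 times the median bin (2.605) or more. The value of a peak is the mean signal within 2500 bp of its centre. The log2 differences below are fkh1Δfkh2Δ2C minus fkh1Δfkh2Δ on log2(signal + 1.72), which understates the change of weak peaks, and a peak was called at an adjusted p under 0.05 (limma, Benjamini-Hochberg over all 390 peaks). Peaks are named by the genes at or beside their centres, and positions are those of the files, for which no source used here names the genome build.

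The state of the Forkhead genes was examined first. In the fkh1Δfkh2Δ2C strain, the deposited ChIP signal of Rpb3, which belongs to RNA polymerase II, showed a stretch of FKH2 with little signal, chromosome XIV from 495701 to 496400, 700 bp long and at the 3′ end of the gene. Mean Rpb3 signal over that stretch was 1.16 and 1.99 in asynchronous and 4.44 and 2.40 in G1-held fkh1Δfkh2Δ2C cells, against 36.0 and 39.3 in asynchronous and 36.3 and 27.5 in G1-held WT cells. Over the rest of FKH2 it was 54.6, 49.1, 61.0 and 53.6 in fkh1Δfkh2Δ2C cells, against 32.6, 38.1, 35.8 and 27.2 in WT cells, in the same order. FKH1 had 3.30, 3.11, 7.62 and 2.97 in fkh1Δfkh2Δ2C cells, against 35.2, 38.4, 40.4 and 27.6 in WT cells. The fkh1Δfkh2Δ2C strain therefore kept most of FKH2 in the Rpb3 libraries and had lost FKH1 signal. The series has Rpb3 libraries of WT and fkh1Δfkh2Δ2C only, so FKH2 in fkh1Δfkh2Δ could not be examined in this way.

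In the BrdU libraries the signal over FKH2 was 96.6% and 61.7% of that of its 1000 bp flanks in fkh1Δfkh2Δ2C replicates 1 and 2, against 68.2% and 39.3% in fkh1Δfkh2Δ replicates 1 and 2. The libraries titled fkh2Δ, the second of which has fkh1Δ as its strain tag, had 43.0% and 40.4%, and those of WT had 102% and 103%. The library labelled fkh1Δfkh2Δ replicate 1 thus lay above fkh1Δfkh2Δ replicate 2 and above both fkh2Δ libraries at the deleted gene, and the strains overlapped. The strain means were 79.2% ± 24.7 in fkh1Δfkh2Δ2C and 53.7% ± 20.4 in fkh1Δfkh2Δ (SD, n = 2 each), with p = 0.667 in a 2-sided exact permutation test that cannot go below 0.3333. Over the 700 bp stretch alone, BrdU signal was 91.0% and 77.3% of the 1000 bp flanks in fkh1Δfkh2Δ2C, against 85.9% and 74.7% in fkh1Δfkh2Δ. WT had 87.9% and 91.0% there, and the libraries titled fkh2Δ had 72.6% and 73.4%. The compared strains overlapped over the stretch as well, and 1 of its flanks lies inside FKH2. Over FKH1 the signal was 73.6% and 74.7% of the flanks in fkh1Δfkh2Δ2C, against 80.3% and 84.1% in fkh1Δfkh2Δ (exact permutation p = 0.3333, the smallest possible). Signal inside FKH1 was 2.80 and 2.69 in fkh1Δfkh2Δ2C, against 2.78 and 2.62 in fkh1Δfkh2Δ, near the median bin of 2.605. The percentages thus differed through the flanks, which were low as well.

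Replicate 1 of fkh1Δfkh2Δ was close to a weighted sum of 2 other libraries. Over all bins, 0.494 times fkh1Δfkh2Δ2C replicate 1 plus 0.512 times fkh1Δfkh2Δ replicate 2 reproduced it to within 0.0327% of its variance. The best sum of a pair of libraries left 0.294% to 8.02% of the variance of the other 9 libraries. At the peaks the median deviation from the sum was 1.34%, and the library lay between its 2 components at 364 of the 390 peaks. The order of these 3 libraries is therefore largely fixed at any peak, and whether the strains overlap there turns mostly on fkh1Δfkh2Δ2C replicate 2. The counts, classes and main peaks below are given also without fkh1Δfkh2Δ replicate 1, and, so that the strains share no library, without replicate 1 of both strains. The first of these fits leaves fkh1Δfkh2Δ with 1 library, and the second leaves both compared strains with 1, assumed to vary like the other strains. Without a fkh1Δfkh2Δ2C replicate, the spread no longer holds the difference between its 2 libraries, the largest of any strain (below). Counts and p-values of such fits may therefore be too favourable, and a call in them is not added support.

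**Figure D1:**
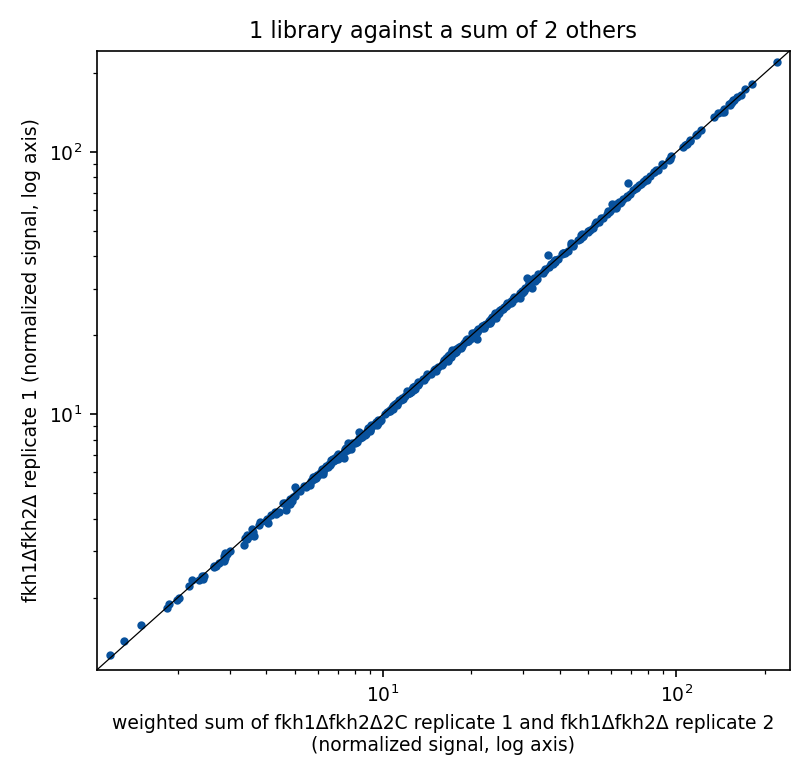
Mean normalized signal of fkh1Δfkh2Δ replicate 1 at the 390 peaks (vertical, log axis) against the weighted sum of fkh1Δfkh2Δ2C replicate 1 and fkh1Δfkh2Δ replicate 2 (horizontal, log axis). Each point is a peak and the line marks equality; the points lie on it, with a median deviation of 1.34%.

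The 2 replicates of fkh1Δfkh2Δ2C differed more than those of any other strain. Their median absolute log2 difference over peaks was 0.29, against 0.10 between those of fkh1Δfkh2Δ, 0.17 in WT, 0.08 in fkh1Δ and 0.09 in fkh2Δ. Over all bins the correlation of the 2 fkh1Δfkh2Δ2C libraries was 0.951, a description over 241409 bins that share their libraries. Replicate 1 of fkh1Δfkh2Δ2C was closer to fkh1Δfkh2Δ replicate 2 (0.974, with a median absolute log2 difference of 0.21 at peaks) than to its own replicate.

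BrdU signal was higher in fkh1Δfkh2Δ2C than in fkh1Δfkh2Δ at 53 of the 390 peaks (13.6%) and lower at 5 (1.28%). The log2 differences of the 53 ran from 0.40 to 1.44 with a median of 0.68, and 3 of them were at least 1. Those of the 5 ran from -0.88 to -0.68. Over all 390 peaks the median was 0.22, 324 differences were positive and 132 peaks had an unadjusted p under 0.05. A peak could enter the set through the strain in which it was high, which can favour positive differences. Signal reached 3 times the median bin at 291 and 332 peaks in fkh1Δfkh2Δ2C, against 284 and 274 in fkh1Δfkh2Δ. How far the choice of peaks set these numbers was not tested. When each library was shifted to a common median over peaks, the median difference moved to -0.03, and 24 peaks were higher and 11 lower, so that 68.6% of the calls were higher, against 91.4% without the shift. The shift itself moves every difference down, so the larger number of lower calls follows in part from it. With the shift, 24 of the 53 higher peaks and all 5 lower ones kept their call.

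Without fkh1Δfkh2Δ replicate 1 the counts were 52 higher (13.3%) and 4 lower (1.03%), with 48 of the 53 and 4 of the 5 still called. Without replicate 1 of both strains they were 171 (43.8%) and 18 (4.62%), which held all 53 and all 5. Without fkh1Δfkh2Δ2C replicate 2 no peak passed in limma, with 78 at an unadjusted p under 0.05. The median log2 difference of the 53 was then 0.52 and that of the 5 was -0.54. The direction of the 58 called peaks could not change, because the strains overlap at none of them. Without fkh1Δfkh2Δ2C replicate 1 the counts were 191 (49.0%) and 19 (4.87%). Without fkh1Δfkh2Δ replicate 2, which leaves only the near sum to stand for its strain, 1 peak was higher and none was lower, with 55 at an unadjusted p under 0.05. The median log2 difference of the 53 was then 0.50, and their sign was again fixed by the lack of overlap.

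**Figure D2:**
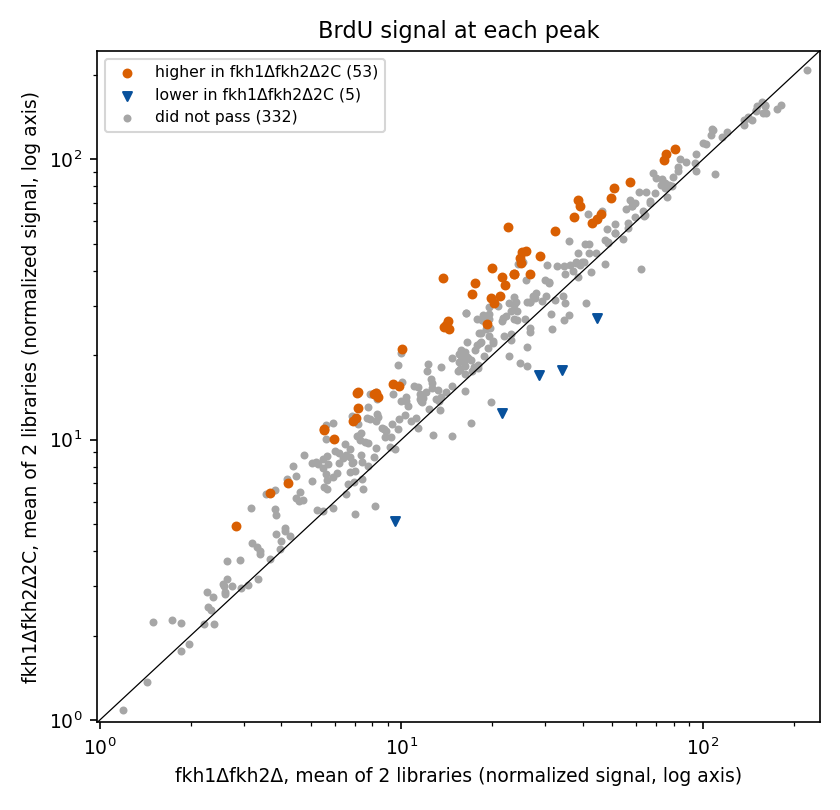
Mean normalized BrdU signal of the 2 fkh1Δfkh2Δ2C libraries (vertical, log axis) against that of the 2 fkh1Δfkh2Δ libraries (horizontal, log axis) at each of 390 peaks, with the line of equality. The 53 higher peaks lie above the line over most of the range of signal, the 5 lower ones below it, and the strongest peaks lie near it.

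Both fkh1Δfkh2Δ2C libraries lay above both fkh1Δfkh2Δ libraries at 232 peaks (59.5%), and below both at 36 (9.23%). Set against fkh1Δfkh2Δ replicate 2 alone, both lay above it at 245 peaks, both below it at 46 and 1 on either side at 99. The choice of peaks can weigh on these counts as well.

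Peaks with overlapping strains were left out when the peaks with the largest called differences were chosen, so that the strains overlap at none of those that follow. With the near sum, that choice also leaves fkh1Δfkh2Δ replicate 2 as the lowest of the 4 libraries at a gain and the highest at a loss. The largest gain was at the peak between NTO1, a subunit of the NuA3 histone acetyltransferase, and SRO7, a protein of polarized exocytosis (chromosome XVI, centre 633976). Its signal was 33.9 and 41.4 in fkh1Δfkh2Δ2C replicates 1 and 2, against 19.4 and 8.12 in fkh1Δfkh2Δ replicates 1 and 2. The lowest library, fkh1Δfkh2Δ replicate 2, stood well under the near sum. The log2 difference was 1.44 ± 0.27 (SE; limma, adjusted p = 0.0147). It was 1.99 without fkh1Δfkh2Δ replicate 1, 2.13 without replicate 1 of both strains and 1.30 without fkh1Δfkh2Δ2C replicate 2. WT averaged 85.5 and fkh1Δ averaged 87.2 there, so both compared strains lay below them.

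The second was between CDC15, a kinase of the mitotic exit network, and PAU7, a seripauperin gene (chromosome I, centre 176126). It had 41.6 and 72.7 in fkh1Δfkh2Δ2C, against 27.8 and 17.1 in fkh1Δfkh2Δ. All 4 values again lay below the WT mean of 118. The log2 difference was 1.27 ± 0.24 (SE; limma, adjusted p = 0.0147), 1.59 without fkh1Δfkh2Δ replicate 1, 1.98 without replicate 1 of both strains and 0.88 without fkh1Δfkh2Δ2C replicate 2. Next came the peak between COQ8, a protein needed for coenzyme Q synthesis, and YGL118C (chromosome VII, centre 286076), with 33.5 and 38.9 in fkh1Δfkh2Δ2C, against 22.2 and 12.8 in fkh1Δfkh2Δ, a log2 difference of 1.02.

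They were followed by peaks at MDV1, a factor of mitochondrial fission, and at TFS1, an inhibitor of carboxypeptidase Y. The MDV1 peak (chromosome X, centre 205276) had 16.4 and 25.6 in fkh1Δfkh2Δ2C, against 12.1 and 8.07 in fkh1Δfkh2Δ, a log2 difference of 0.94. The TFS1 peak (chromosome XII, centre 513176) had 28.5 and 53.6 in fkh1Δfkh2Δ2C, against 22.6 and 17.4 in fkh1Δfkh2Δ, a log2 difference of 0.92. At TFS1 replicate 2 of fkh1Δfkh2Δ2C stood far above replicate 1, whose value was nearer to those of fkh1Δfkh2Δ.

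The peak at ITT1, a modulator of translation termination (chromosome XIII, centre 137676), had 30.5 and 35.6 in fkh1Δfkh2Δ2C, against 21.3 and 12.9 in fkh1Δfkh2Δ. The peak between NFG1 and TRX1, a cytosolic thioredoxin (chromosome XII, centre 230826), had 66.0 and 77.2 in fkh1Δfkh2Δ2C, against 48.3 and 28.6 in fkh1Δfkh2Δ. At both, the 2 fkh1Δfkh2Δ2C libraries lay close together, with log2 differences of 0.92 at ITT1 and 0.91 at NFG1 and TRX1. SPO11, the enzyme that cuts DNA in meiosis, lay at a weaker peak (chromosome VIII, centre 64076). It had 11.03 and 18.4 in fkh1Δfkh2Δ2C, against 8.24 and 5.95 in fkh1Δfkh2Δ, a log2 difference of 0.87.

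The peak between YOL024W and IFM1, a mitochondrial translation initiation factor (chromosome XV, centre 277676), had 38.3 and 55.1 in fkh1Δfkh2Δ2C, against 29.1 and 20.998 in fkh1Δfkh2Δ. Between VMA8, a subunit of the vacuolar proton pump, and RML2, a mitochondrial ribosomal protein (chromosome V, centre 59426), the values were 45.5 and 43.6 in fkh1Δfkh2Δ2C, against 30.3 and 19.1 in fkh1Δfkh2Δ. At YJR098C (chromosome X, centre 613126) they were 24.01 and 27.1 in fkh1Δfkh2Δ2C, against 17.2 and 10.9 in fkh1Δfkh2Δ. The log2 differences of these 3 peaks were 0.85, 0.84 and 0.82. In all 3 fkh1Δfkh2Δ replicate 2 was the lowest library, which the near sum and the choice of peaks fix.

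The peak between CBP4, an assembly factor of the respiratory bc1 complex, and YGR174W-A (chromosome VII, centre 846576) was of another kind. It had 10.4 and 19.2 in fkh1Δfkh2Δ2C, against 8.09 and 6.28 in fkh1Δfkh2Δ, a log2 difference of 0.84, while WT averaged 3.31 and fkh1Δ averaged 6.31. It was the only 1 of the 12 largest gains at which WT lay below all 4 libraries. It was also the only 1 of the 12 to lose its call without fkh1Δfkh2Δ replicate 1, and with the common median (limma, adjusted p = 0.0787). Its log2 difference was 1.38 without replicate 1 of both strains.

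At the other 11 of these 12 peaks the WT mean exceeded all 4 libraries, and it ran from 52.9 at SPO11 to 139 at YOL024W and IFM1. The WT mean exceeded all 4 libraries at 46 of the 53 higher peaks. None of the 11 was called between fkh1Δ and WT, and 187 of all 390 peaks were not called there either. A missing call does not mean an equal level. At SPO11 fkh1Δ averaged 36.5 against 52.9 in WT, a log2 difference of -0.52 (limma, adjusted p = 0.0554). At the rest of the 11 that difference ran from -0.26 at ITT1 to 0.22 at NFG1 and TRX1. The signal of the 11 in the 2 compared strains was thus below WT in each library, and less so in fkh1Δfkh2Δ2C. Without replicate 1 of both strains the log2 differences of the 12 were 1.12 to 2.13, and without fkh1Δfkh2Δ replicate 1 they were 0.99 to 1.99. None of the 12 lay within 20 kb of a centromere or of a chromosome end. Of all 390 peaks, 40 lay that near a centromere and 6 that near an end. With so few peaks there, none among 12 is near the share over all peaks.

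**Figure D3:**
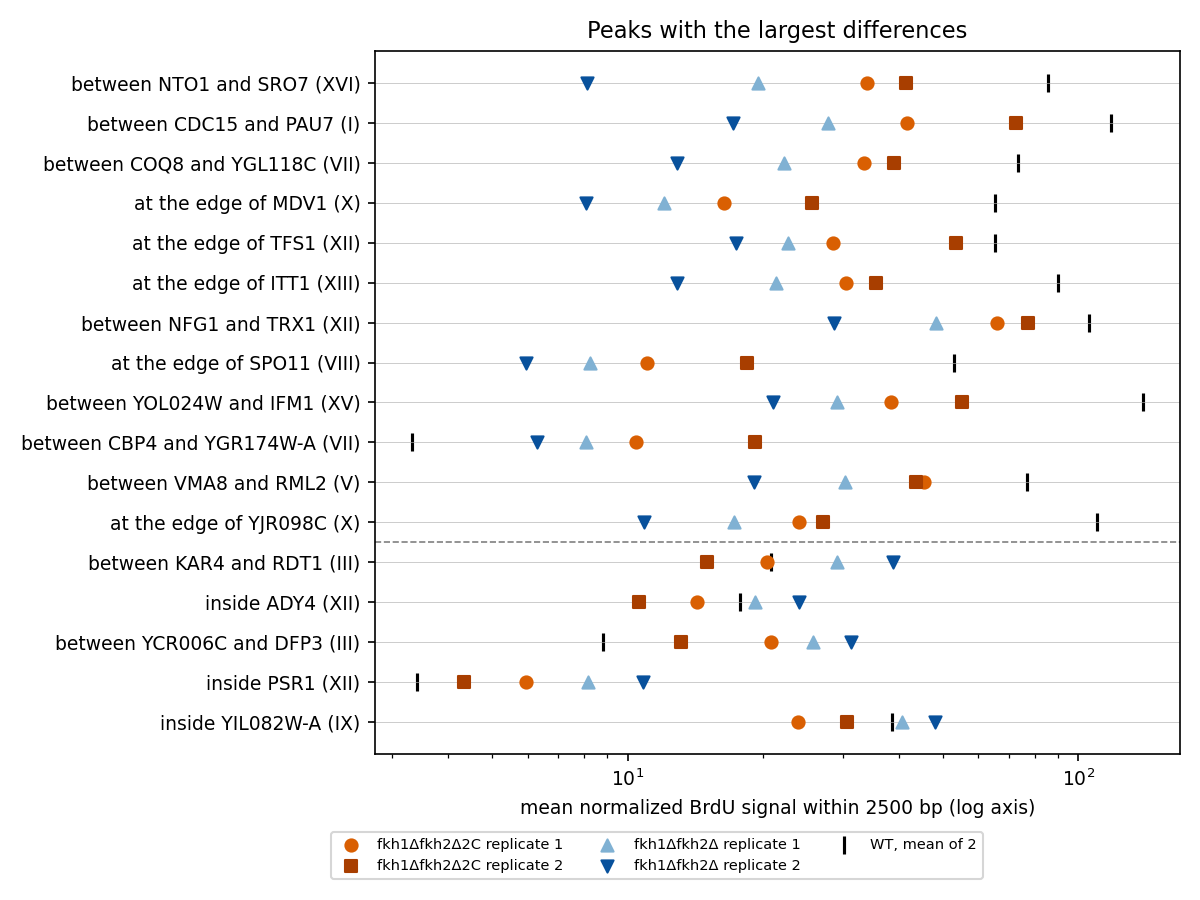
Normalized BrdU signal (horizontal, log axis) in each of the 4 libraries, with the WT mean as a bar, at the 12 peaks with the largest gains (above the dashed line) and the 5 lower peaks (below it), with the chromosome in parentheses. The strains do not overlap at any of these peaks because such peaks were chosen; at 11 of the 12 upper peaks the WT bar lies to the right of all 4 libraries.

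At none of the 5 peaks that were lower in fkh1Δfkh2Δ2C did the WT mean exceed all 4 libraries. The peak between KAR4, a transcription factor of the mating response, and RDT1 (chromosome III, centre 30176) had 20.3 and 15.0 in fkh1Δfkh2Δ2C, against 29.2 and 38.8 in fkh1Δfkh2Δ. The WT mean of 20.7 lay near fkh1Δfkh2Δ2C replicate 1. The log2 difference was -0.88 ± 0.18 (SE; limma, adjusted p = 0.0147), and -1.27 without replicate 1 of both strains.

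Inside ADY4, a component of the meiotic spindle pole (chromosome XII, centre 591426), the signal was 14.2 and 10.6 in fkh1Δfkh2Δ2C, against 19.2 and 23.96 in fkh1Δfkh2Δ, a log2 difference of -0.73. Inside PSR1, a plasma membrane phosphatase of the sodium stress response (chromosome XII, centre 129526), it was 5.95 and 4.32 in fkh1Δfkh2Δ2C, against 8.17 and 10.8 in fkh1Δfkh2Δ, a log2 difference of -0.71. At both, fkh1Δfkh2Δ2C replicate 2 was the lowest of the 4. Between YCR006C and DFP3 (chromosome III, centre 125626) the values were 20.8 and 13.1 in fkh1Δfkh2Δ2C, against 25.8 and 31.3 in fkh1Δfkh2Δ, a log2 difference of -0.72. That peak lay 10.8 kb from a centromere, and it was the 1 of the 5 to lose its call without fkh1Δfkh2Δ replicate 1 (limma, adjusted p = 0.0641).

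The lower peak inside YIL082W-A, a gene of a Ty3 retrotransposon (chromosome IX, centre 209326), had 23.9 and 30.6 in fkh1Δfkh2Δ2C, against 40.6 and 48.2 in fkh1Δfkh2Δ, a log2 difference of -0.68. It differed from the other 4 in that fkh1Δfkh2Δ2C replicate 1, not replicate 2, was the lowest. Retrotransposons have near-identical copies, and the handling of reads that match several places is stated in no source used here, so this value is uncertain. The ADY4 peak also reaches Ty genes, YLR227W-A and YLR227W-B, within 2500 bp of its centre, and the same holds for it. Among the gains, the MDV1 peak reaches a Ty gene, YJL113W, within 2500 bp, so its value is uncertain in the same way. Without replicate 1 of both strains the log2 differences of the 5 lower peaks ran from -1.27 to -0.62, and without fkh1Δfkh2Δ replicate 1 they were -1.08 to -0.79.

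Classes of peaks were set by libraries outside the comparison, namely WT signal and the call between fkh1Δ and WT, in which 84 peaks were higher (21.5%) and 119 lower (30.5%). They are described by counts and medians only. Of the 130 peaks with the highest WT signal, 46 were higher in fkh1Δfkh2Δ2C and none lower, with a median log2 difference of 0.30. Among the 130 peaks of middle WT signal 5 were higher and 4 lower, with a median of 0.21, and among the 130 of lowest WT signal 2 were higher and 1 lower, with a median of 0.16. The medians thus differed by less than the counts did, and the median SE was 0.13 in the highest group, 0.17 in the middle and 0.17 in the lowest. With the common median the highest group had 23 higher and none lower, with a median of 0.05.

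The median signal at the 130 peaks strongest in WT was 42.7 and 58.2 in fkh1Δfkh2Δ2C, against 37.4 and 31.0 in fkh1Δfkh2Δ. WT libraries had 80.2 and 82.1 there, and fkh1Δ libraries 66.8 and 62.4. Without fkh1Δfkh2Δ replicate 1 there were 50 higher peaks in this group, and without replicate 1 of both strains 90 higher and 3 lower. In the middle group the counts were 2 higher and 3 lower without fkh1Δfkh2Δ replicate 1, and 46 and 11 without replicate 1 of both strains. In the lowest group they were 0 and 1, and then 35 and 4.

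The same 130 peaks, split by the call between fkh1Δ and WT, a split made after values were seen, gave the following counts. Of the 53 not called in fkh1Δ, 31 were higher in fkh1Δfkh2Δ2C, with a median log2 difference of 0.57. Of the 50 lower in fkh1Δ, 15 were higher, with a median of 0.36, and of the 27 higher in fkh1Δ, none was called, with a median of -0.01. No test of the difference between these classes was made. The 53 peaks held median signals of 47.3 and 61.0 in fkh1Δfkh2Δ2C, against 44.1 and 29.9 in fkh1Δfkh2Δ, while fkh1Δ had 77.2 and 77.5 and WT had 81.7 and 83.3. High WT signal and a like level in fkh1Δ are fixed by how the 53 were chosen; among the 4 compared libraries, fkh1Δfkh2Δ replicate 2 was the lowest. With the common median 18 of the 53 were higher, with a median of 0.32, and without fkh1Δfkh2Δ replicate 1 the count was 33, with a median of 0.67. Leaving out replicate 1 of both strains, 47 of the 53, 38 of the 50 and 5 of the 27 were higher, 3 of the 27 were lower, and the medians were 0.91, 0.55 and -0.04. Without fkh1Δfkh2Δ2C replicate 2 the medians were 0.42, 0.20 and 0.03, with none called.

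The same classes were set against fkh1Δfkh2Δ replicate 2 alone, for each fkh1Δfkh2Δ2C library. At the 53 peaks the median log2 ratio was 0.58 in replicate 1, positive at 48, and 0.91 in replicate 2, positive at 52. Over all 390 peaks the medians were 0.10 in replicate 1, positive at 261, and 0.40 in replicate 2, positive at 328. At the 27 peaks that were strong in WT and higher in fkh1Δ they were 0.04 and -0.04. At all 130 peaks strong in WT the medians were 0.29 in replicate 1 and 0.49 in replicate 2. At peaks of middle WT signal replicate 1 had a median of 0.05 and replicate 2 one of 0.39, and at those of lowest WT signal they had 0.05 and 0.32.

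**Figure D4:**
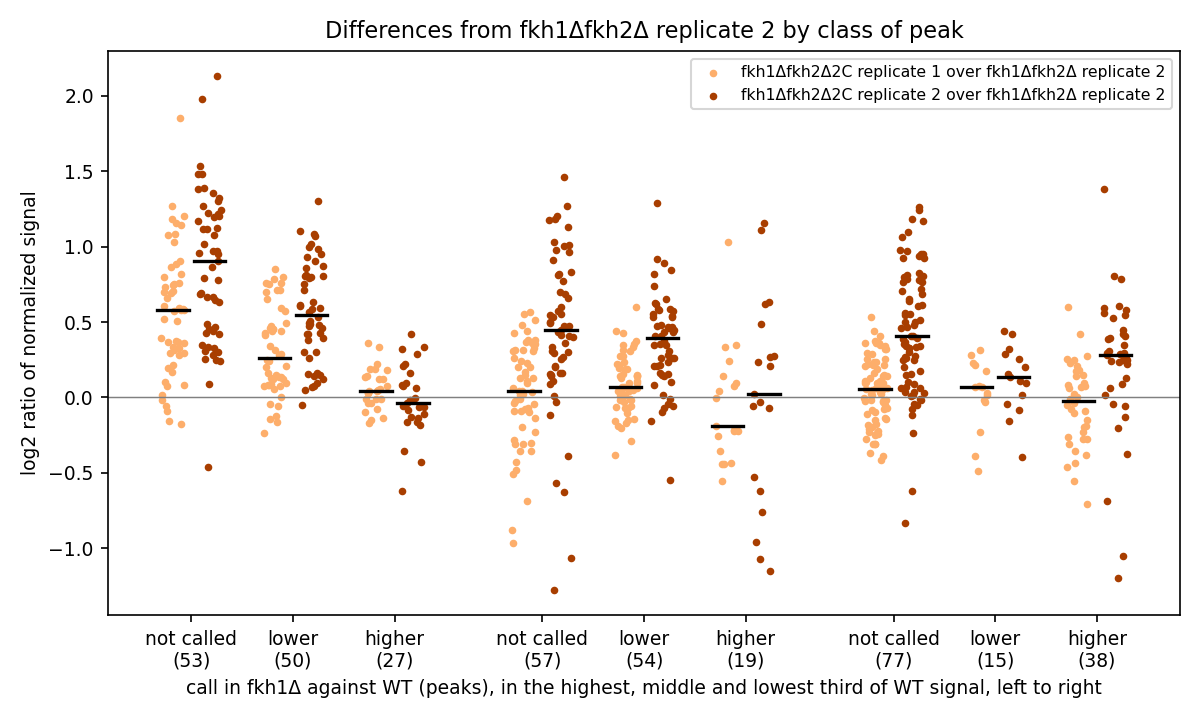
Log2 ratio of normalized BrdU signal of fkh1Δfkh2Δ2C replicate 1 (light) and replicate 2 (dark) to fkh1Δfkh2Δ replicate 2 (vertical) at each peak, by WT signal (130 peaks in each of 3 blocks) and, within a block, by the call in fkh1Δ against WT, with numbers of peaks in parentheses. Black bars are medians; at the 53 peaks strong in WT and not called in fkh1Δ they are 0.58 and 0.91.

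The 40 peaks within 20 kb of a centromere had a median log2 difference of 0.00, with 2 higher and 1 lower, against 0.24 with 50 higher and 4 lower at the 344 peaks away from centromeres and ends; with the common median the values were -0.25 and -0.01. Without fkh1Δfkh2Δ replicate 1 the 40 had 3 higher and none lower, with a median of 0.02. Without replicate 1 of both strains they had 10 higher and 7 lower, and without fkh1Δfkh2Δ2C replicate 1 alone 8 and 7, with medians of -0.01 and -0.03. The shares of all peaks called in these 2 fits are given above, and the medians over all peaks were 0.40 and 0.38. The 40 peaks had a median signal of 118 and 119 in fkh1Δfkh2Δ2C, against 109 and 102 in fkh1Δfkh2Δ. The 8 peaks that were among the 5 strongest of either strain all lay within 18 kb of a centromere, with log2 differences from -0.23 to 0.04, and none passed with all libraries or without fkh1Δfkh2Δ replicate 1. Without replicate 1 of both strains 2 of the 8 were lower, the peak between YCL001W-B and YCR001W (log2 difference -0.43; limma, adjusted p = 0.00446) and that inside YEA4 (-0.36; adjusted p = 0.00583). The strongest of all, at ECM9 (chromosome XI, centre 447526), had 217 and 198 in fkh1Δfkh2Δ2C, against 221 and 222 in fkh1Δfkh2Δ. Of the 6 peaks within 20 kb of a chromosome end 1 was higher and none lower, with a median of -0.04, and the counts were the same without fkh1Δfkh2Δ replicate 1 and without replicate 1 of both strains. Their median signal was 2.13 and 1.87 in fkh1Δfkh2Δ2C, against 1.97 and 1.95 in fkh1Δfkh2Δ, and 8.50 and 7.62 in WT.

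Further peaks were taken because both strains differed strongly from WT there. The peak at DAL2, an enzyme of the allantoin pathway (chromosome IX, centre 411826), had 11.1 and 12.9 in fkh1Δfkh2Δ2C, against 8.32 and 5.82 in fkh1Δfkh2Δ, while WT averaged 127 and fkh1Δ averaged 120. It was called higher, with a log2 difference of 0.65 ± 0.15 (SE; limma, adjusted p = 0.0147) and 0.95 without replicate 1 of both strains, though not with the common median (adjusted p = 0.0693). Nearby DAL1, another enzyme of that pathway (centre 406726), had 4.78 and 8.02 in fkh1Δfkh2Δ2C, against 3.84 and 3.29 in fkh1Δfkh2Δ, and just missed the threshold (log2 difference 0.59; limma, adjusted p = 0.050003). The log2 difference at DAL1 was 0.96 without replicate 1 of both strains and 0.67 without fkh1Δfkh2Δ replicate 1. At both peaks fkh1Δfkh2Δ2C retained a small part of the WT signal.

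The peak at TOR2, a kinase of growth control (chromosome XI, centre 55926), had 5.16 and 6.14 in fkh1Δfkh2Δ2C, against 4.17 and 3.45 in fkh1Δfkh2Δ (log2 difference 0.41; limma, adjusted p = 0.0850). Its log2 difference was 0.60 without replicate 1 of both strains and 0.51 without fkh1Δfkh2Δ replicate 1. Next was the peak between RDR1, a regulator of drug pumps, and FRE3, an iron reductase (chromosome XV, centre 1053576). The signal there was 5.32 and 3.77 in fkh1Δfkh2Δ2C, against 4.58 and 3.95 in fkh1Δfkh2Δ. The strains overlapped at RDR1, WT averaged 111, and neither fit without a replicate 1 called it.

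At 4 other peaks both strains lay above WT, and none of the 4 passed with all libraries, without fkh1Δfkh2Δ replicate 1 or without replicate 1 of both strains. At RAD53, the checkpoint kinase (chromosome XVI, centre 262126), the signal was 69.1 and 70.01 in fkh1Δfkh2Δ2C, against 67.9 and 65.7 in fkh1Δfkh2Δ, with 7.27 in WT. At YNL115C (chromosome XIV, centre 411926) it was 90.8 and 104 in fkh1Δfkh2Δ2C, against 89.7 and 86.1 in fkh1Δfkh2Δ, with 10.04 in WT. The values at these 2 peaks were close together, with log2 differences of 0.06 at RAD53 and 0.14 at YNL115C. Between ASP1 and MRPL35 (chromosome IV, centre 1110326) the values were 35.5 and 50.4 in fkh1Δfkh2Δ2C, against 38.1 and 41.0 in fkh1Δfkh2Δ. At GSP2 (chromosome XV, centre 681426) they were 29.0 and 54.3 in fkh1Δfkh2Δ2C, against 32.9 and 36.3 in fkh1Δfkh2Δ. At both of these the fkh1Δfkh2Δ2C replicates lay on either side of fkh1Δfkh2Δ, and the direction depended on which of them was kept. Without fkh1Δfkh2Δ2C replicate 1 the log2 difference was 0.34 at ASP1 and 0.63 at GSP2 (limma, adjusted p = 0.0446, a call), and without fkh1Δfkh2Δ2C replicate 2 it was -0.15 at ASP1 and -0.24 at GSP2.

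Peaks reached few of the genes of the lists, and with 13.6% of all peaks called higher, a count of 0 among so few is near that share. Of 6 peaks that touch a gene of the CLB2 cluster, the mitotic genes that Forkheads activate, none was called with all libraries. Their median log2 difference was 0.11. Without fkh1Δfkh2Δ replicate 1 the median was 0.08, against 0.25 over all peaks. Without replicate 1 of both strains it was 0.23, against 0.40 over all peaks. The largest of the 6 differences was at SFG1, a regulator of pseudohyphal growth (chromosome XV, centre 907676). The signal there was 73.5 and 69.9 in fkh1Δfkh2Δ2C, against 63.1 and 51.1 in fkh1Δfkh2Δ. The log2 difference was 0.33 (limma, adjusted p = 0.0951), and 0.47 without fkh1Δfkh2Δ replicate 1. Without replicate 1 of both strains it was 0.44 at SFG1 and 0.49 at ASE1, another of the 6. Of 5 peaks at origin firing genes, namely MCM2, CDC6, SLD2, ORC3 and CDC45, none was called with all libraries, and the median was 0.25. That median was 0.26 without fkh1Δfkh2Δ replicate 1 and 0.46 without replicate 1 of both strains. In the latter fit the 5 had 0.46, 0.59, 0.50, 0.09 and 0.26, in the order named. Of 3 peaks at histone genes that of HTA1 and HTB1, which encode histones H2A and H2B (chromosome IV, centre 914026), was higher. It had 82.2 and 76.3 in fkh1Δfkh2Δ2C, against 63.1 and 38.1 in fkh1Δfkh2Δ, a log2 difference of 0.67 (limma, adjusted p = 0.0272), 1.02 without fkh1Δfkh2Δ replicate 1 and 0.97 without replicate 1 of both strains.

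In 1 kb windows, 10871 of 12079 were tested and none was called in limma with all libraries (0.0%), with 715 higher and 674 lower at an unadjusted p under 0.05. The median log2 difference was 0.20 over 2326 windows within peaks and -0.01 over 8545 outside them. Without fkh1Δfkh2Δ replicate 1, 195 windows were higher (1.79%) and 46 lower (0.423%). The 195 formed 50 runs of up to 10 kb, and 174 of them lay within peaks, while 35 of the 46 lay outside peaks. Without replicate 1 of both strains 767 were higher (7.06%), 702 of them within peaks, and 619 lower (5.69%), 495 of them outside peaks. Neighbouring windows share signal, so their counts are not independent.

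The shape of peaks differed between the libraries, and most in fkh1Δfkh2Δ2C replicate 2. Within peaks, which covered 16.3% of the genome, lay 52.1% and 59.7% of the signal in fkh1Δfkh2Δ2C replicates 1 and 2, against 49.99% and 47.8% in fkh1Δfkh2Δ. Over 83 isolated peaks, at least 15 kb from the next and with a signal of 20 or more in all 4 libraries, the median width at 50% of the height was 5500 and 4150 bp in fkh1Δfkh2Δ2C, against 5350 and 5400 bp in fkh1Δfkh2Δ. Signal at 4 to 6 kb from the centre was 20.7% and 11.9% of that in the centre in fkh1Δfkh2Δ2C, against 23.0% and 25.6% in fkh1Δfkh2Δ. Replicate 2 of fkh1Δfkh2Δ2C was thus narrower than the 3 other libraries, and narrower than its own replicate at 81 of the 83 peaks.

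Replicate 1 of fkh1Δfkh2Δ2C was narrower than fkh1Δfkh2Δ replicate 2 at 46 of the 83. The median width was 4800 and 4750 bp in WT, 4700 and 4650 bp in fkh2Δ, and 5500 and 5700 bp in fkh1Δ. With the signal averaged within 1000 bp of the centre 42 peaks were higher and 5 lower, and within 5000 bp 50 and 5. The part of peak shape in the differences was not tested.

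**Figure D5:**
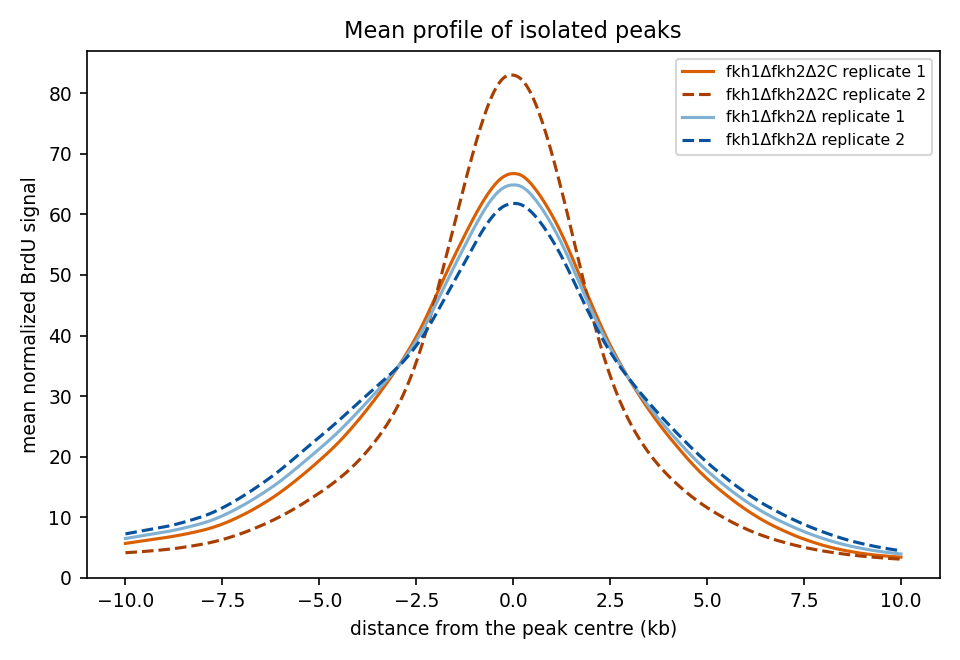
Mean normalized BrdU signal (vertical) against distance from the peak centre in kb (horizontal) over 83 isolated peaks, for each of the 4 libraries. Replicate 2 of fkh1Δfkh2Δ2C is highest in the centre and lowest at 4 to 6 kb, and fkh1Δfkh2Δ replicate 1 lies between fkh1Δfkh2Δ2C replicate 1 and fkh1Δfkh2Δ replicate 2.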

How the data were processed

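The authors deposited 1 table of normalized BrdU signal for 10 libraries in bins of 50 bp. No source used here names the aligner, the genome build or the normalization. The Rpb3 and RNA values, also a deposited signal per bin, served to examine FKH1 and FKH2 and to place genes; 4 columns with an ambiguous sample were not used. Genes of RefSeq (6002) were placed on the bins by stranded RNA signal, and 94.1% of those with signal were then mostly sense; edges may be off by some 100 bp.

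Peaks were local maxima after smoothing over 1000 bp, at least 5000 bp apart. Signal was taken as log2 after adding 10% of the median over peaks (1.72) and fitted with limma 3.58.1 in R 4.3.3, with a variance trend, over all 10 libraries in 5 groups without covariates, and p-values were adjusted by Benjamini-Hochberg. In 1 kb windows the lowest 10% were left out. The procedure was run on simulated data with independent noise in each library. Neither the near sum nor the unlike replicates of fkh1Δfkh2Δ2C were simulated, so that run says nothing about their effect on the p-values. The members, classes and lists were chosen with earlier results of these data known. Named peaks were the 12 largest called differences in each direction without overlap of strains (5 existed among the lower ones), 8 peaks at which both strains differed from WT, and FKH1 and FKH2; the strongest peaks and those of the lists were added. The alternatives varied the pseudocount, peak width, peak threshold, scaling, model and libraries. Depth is unknown, so no counting intervals could be given.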

Additional observations from a re-analysis of the deposited data

How the results depend on the processing

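Of the 53 higher and 5 lower peaks, other pseudocounts, widths, peak thresholds and no variance trend gave counts within 1.5 times of these. The exceptions were 3 lower peaks when peaks were found without the 4 libraries, 24 higher and 11 lower with a common median, and 0 and 0 with only the 4 libraries in the fit (78 at an unadjusted p under 0.05 in limma). Without replicate 1 of both strains the counts were 171 and 18, and leaving out 1 of the 4 libraries gave 0 to 191 higher and 0 to 19 lower. For windows these were 767 and 619, 0 to 731 and 0 to 661, and 1 lower without the filter on low windows. With the common median the median log2 difference was -0.0312 over all peaks, -0.29 near ends and -0.25 near centromeres; near centromeres it was 0.0910 within 1000 bp and -0.14 within 5000 bp. The cause was not tested. Peaks that had not passed changed sign as follows. With the common median the log2 difference was -0.19 at RDR1, -0.15 at ASP1, -0.11 at YNL115C, -0.0563 at GSP2 and -0.19 at RAD53. Within 5000 bp it was -0.0309 at ASP1, -0.0201 at YNL115C and -0.0591 at RAD53. Leaving out 1 of the 4 libraries gave -0.12 to 0.24 at RDR1, -0.15 to 0.34 at ASP1 and -0.24 to 0.63 at GSP2. Without replicate 1 of both strains RDR1 had -0.05, and without fkh1Δfkh2Δ replicate 1 and fkh1Δfkh2Δ2C replicate 2 RDR1 had 0.31, ASP1 had -0.20 and GSP2 -0.31. That last setting and a crossed block were chosen after seeing the data. The differences between replicates 1 and 2 of the 2 strains had a correlation of 0.0263 over peaks. Through the near sum, fkh1Δfkh2Δ2C replicate 1 enters both differences. The value therefore cannot tell whether samples of the same number were paired. With the replicate block 43 peaks were higher and 4 lower, and with crossed numbers 61 and 6. With 2 libraries a strain, 1 of which is close to a sum of 2 others, the p-values treat as independent what is not.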
